A study of Mus musculus with 6 samples.

Results

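The genes described here are the 10 members of the transforming growth factor β (TGFβ) system that carry the names TGFB1, TGFB2, TGFB3, TGFBR1, TGFBR2, TGFBR3, LTBP1, LTBP2, LTBP3 and TGFBI on the Illumina MouseWG-6 v2.0 array. All probes with one of these names were taken, which gave 27 of the 45281 probes and 10 of the 30854 gene names. The cells are PA6, a murine stromal line that is the feeder layer for the embryonic stem (ES) cells in the co-cultures of the study, here grown alone as confluent monolayers. Before RNA extraction the monolayers spent 3 h in serum-free medium, either free of growth factors (-GFs) or containing recombinant FGF2 at 20 ng/ml or recombinant BMP4 at 10 ng/ml, the dose of BMP4 being that of the sample labels (the methods on the co-cultures state a lower one). Each group had 2 replicates with 1 array each, and a biological replicate was made of 1 untreated well, 1 well with FGF2 and 1 well with BMP4. All wells hold the same unmodified line, so the arrays describe a single cell line in short-term culture.

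TGFβ is secreted as a latent complex. The ligands TGFβ1, TGFβ2 and TGFβ3 leave the cell bound to their own propeptide, and latent TGFβ binding proteins (LTBPs) tie that complex to the extracellular matrix, from which integrins, thrombospondin and proteases can set the ligand free. Active ligand binds the type II receptor TGFBR2, which recruits and phosphorylates the type I receptor TGFBR1, and the latter phosphorylates SMAD2 and SMAD3. The type III receptor TGFBR3 (betaglycan) is a co-receptor that presents ligand, TGFβ2 in particular, and TGFBI is a matrix protein known for its induction by TGFβ. The question the arrays address is whether the stroma changes the messengers of these genes within hours of FGF2 or BMP4. The arrays do not measure secreted or active ligand, or receptor protein.

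With FGF2, the messenger of TGFB1 was up-regulated and was the member that passed both thresholds. TGFBR1, by its brightest probe, had the largest log2 fold change of the 10 and passed when the replicate number was taken into account. A dimmer TGFBR1 probe gave 0.31, and the mean of both probes was 0.86, short of the fold threshold. TGFB3 had a log2 fold change of -0.90, short of the fold threshold. The other members, none of which was called, had values of 0.27 to 0.58. These moved when single arrays were left out, in fits that did not take the replicate number into account. With BMP4 no member passed the test against -GFs medium.

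The promoter sequences of TGFB1 and TGFBR1 are shown because these members had the largest log2 fold changes with FGF2, TGFB1 being called in the model of groups and TGFBR1 only with the replicate block, and that of TGFB2 because this ligand was called in neither. They were taken from RefSeq on build GRCm38.p6 as the 250 bases before the annotated start, which were found for 8 of the 10 members (10 promoters, since TGFBR1 and LTBP1 have 2 starts each). TGFB3 and TGFBR3 had no entry. Capitals mark matches, on either strand, to the early growth response (EGR) motif GCGNGGGCG or to the GC box GGGCGG, which can overlap each other. The sequence of Tgfb1 lies at chr7:25686752-25687001 on the plus strand, that of Tgfbr1 at chr4:47352972-47353221 on the plus strand and that of Tgfb2 at chr1:186705990-186706239 on the minus strand, all printed 5′ to 3′ along the gene.
Tgfb1: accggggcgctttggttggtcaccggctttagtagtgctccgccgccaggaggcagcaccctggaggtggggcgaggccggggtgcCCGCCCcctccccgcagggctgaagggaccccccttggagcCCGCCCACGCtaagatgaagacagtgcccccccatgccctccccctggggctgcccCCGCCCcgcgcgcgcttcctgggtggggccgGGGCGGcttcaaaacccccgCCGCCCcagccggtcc
Tgfbr1: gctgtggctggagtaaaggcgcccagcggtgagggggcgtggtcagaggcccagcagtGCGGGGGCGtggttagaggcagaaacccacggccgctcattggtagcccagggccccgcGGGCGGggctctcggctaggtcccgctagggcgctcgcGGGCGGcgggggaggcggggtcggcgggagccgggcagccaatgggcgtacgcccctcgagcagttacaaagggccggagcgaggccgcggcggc
Tgfb2: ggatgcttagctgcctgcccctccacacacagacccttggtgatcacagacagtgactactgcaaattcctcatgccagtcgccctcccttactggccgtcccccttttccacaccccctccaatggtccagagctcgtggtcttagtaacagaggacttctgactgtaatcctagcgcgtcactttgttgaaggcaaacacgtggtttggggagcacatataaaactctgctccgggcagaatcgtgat
The Tgfb1 promoter held 1 EGR match, at positions -122 to -114 from the start, which overlaps a GC box at -123 to -118, and 5 GC boxes in all. The first Tgfbr1 promoter held 1 EGR match at -192 to -184 and 2 GC boxes. Among all 32851 RefSeq promoters of this length, 4.7% held the EGR motif and 32.7% a GC box. No share was computed for promoters of like GC content. The AP-1 motif TGANTCA (6.75% of all promoters) and the palindromic SMAD motif GTCTAGAC (0.167%) had no match in any of the 10 member promoters. At such low shares, absence from 10 promoters says little. In the other members, GC boxes were found for LTBP2 (2) and TGFBI (1), and neither motif for TGFBR2, LTBP1, LTBP3, Tgfb2 or the second Tgfbr1 start. The GC content was 75.2% for Tgfb1 and 74.8% for the first Tgfbr1 promoter, and 47.2% to 62.4% for the other 8 member promoters, Tgfb2 (53.6%) and the second Tgfbr1 start (52.8%) among them. Both EGR matches thus lay in the member promoters richest in GC. All the matches describe the letters of the window, and binding was not measured.

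The arrays measure the brightness of beads that carry 1 oligonucleotide each. On an array, 15509 to 16459 probes were detected, that is, brighter than the negative control beads at a detection p-value under 0.05, with little difference between groups. All 10 stromal markers looked for (among them COL1A1, PDGFRA, THY1 and CXCL12) were detected on all 6 arrays, with a summed normalized intensity of 130149 to 139908 in -GFs medium, 119138 to 120929 with FGF2 and 126316 to 143487 with BMP4. Of the markers of other cells, 1 of 5 for ES cells (POU5F1), 1 of 6 for endothelial cells (TEK), 1 of 4 for haematopoietic cells (LYZ2), 1 of 4 for epithelial cells (CDH1) and 0 of 2 for neurons were detected on all arrays. NANOG, SOX2, CDH5, PECAM1, PTPRC and EPCAM were among those detected on none. CSF1R was detected on 5 arrays, KDR on 4, DPPA5A on 3 and MAP2 on 1. In whole-culture RNA, fewer cells of a kind and less RNA per cell cannot be told apart.

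Values below are log2 intensities after normalization, and a difference of 1 means a ratio of 2. A gene was called modulated when its log2 fold change was over 1 in size and its limma p-value, adjusted by Benjamini-Hochberg over 11872 genes, was under 0.1. All 10 members were tested. Arrays with the same replicate number deviated together from their group means, as the shared replicates of the labels imply. The difference within each replicate number is therefore given as well. For most members so is the adjusted p of the model that holds the replicate number as a block. The smallest two-sided p that an exact permutation test allows with this many arrays is 0.333, so the tests rest on the spread that limma shares between genes.

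TGFB1, the ligand with the broadest expression, had a log2 intensity of 9.66 and 9.89 in -GFs medium, 10.70 and 11.14 with FGF2 and 9.40 and 9.59 with BMP4, in the order replicate 1 and replicate 2. Both FGF2 arrays lay above the other 4, and both BMP4 arrays below those in -GFs medium. As deposited, before any normalization, the intensities were 935.2 and 890.1 in -GFs medium, 1659.4 and 2160.7 with FGF2 and 635.6 and 782.3 with BMP4. The FGF2 arrays were thus above the rest before normalization too. The difference between FGF2 and -GFs was 1.04 within replicate 1 and 1.25 within replicate 2. The fold was 2.21, with a 95% interval of 1.59 to 3.06, and the log2 fold change had rank 210 from the highest among 11872 genes (adjusted p = 0.0258). With the replicate block the adjusted p was 8.67e-06. In fits without the block, the call depended on single arrays. The log2 fold change was 1.03 with -GFs replicate 1 left out and 0.92 with FGF2 replicate 2 left out, and TGFB1 was called in neither fit.

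TGFB2, the ligand that depends most on betaglycan, had 8.32 and 8.09 in -GFs medium, 8.72 and 8.71 with FGF2 and 8.21 and 8.44 with BMP4. Both FGF2 arrays were above the others. The log2 fold change for FGF2 was 0.51 (standard error 0.16), 0.40 and 0.62 within the replicates, and the adjusted p was 0.121, or 0.0140 with the replicate block, in both cases short of the fold threshold. With neqc the log2 fold change was 0.83 (adjusted p = 0.121).

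TGFB3 went the other way. This ligand had 10.16 and 9.69 in -GFs medium, 9.25 and 8.79 with FGF2 and 10.00 and 10.41 with BMP4, so that both FGF2 arrays were the lowest of the 6. The deposited intensities were 1311.3 and 778.4 in -GFs medium, 613.1 and 420 with FGF2 and 954.3 and 1397.4 with BMP4. Within both replicates the difference between FGF2 and -GFs was nearly equal, -0.91 and -0.90. The level in -GFs medium was 1.87-fold that with FGF2. The log2 fold change was -0.90 (standard error 0.25, adjusted p = 0.0876, or 0.00109 with the block), under the p threshold and short of the fold threshold. With any 1 of the -GFs and FGF2 arrays left out, in fits without the block, the log2 fold change was -1.14 to -0.67. TGFB3 no longer passed the p threshold in these fits. With neqc the log2 fold change was -1.11 (adjusted p = 0.115, or 0.0372 with the replicate block, when TGFB3 is called). The neqc method replaces the spline normalization and here infers the background from the detection p-values.

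**Figure D1:**
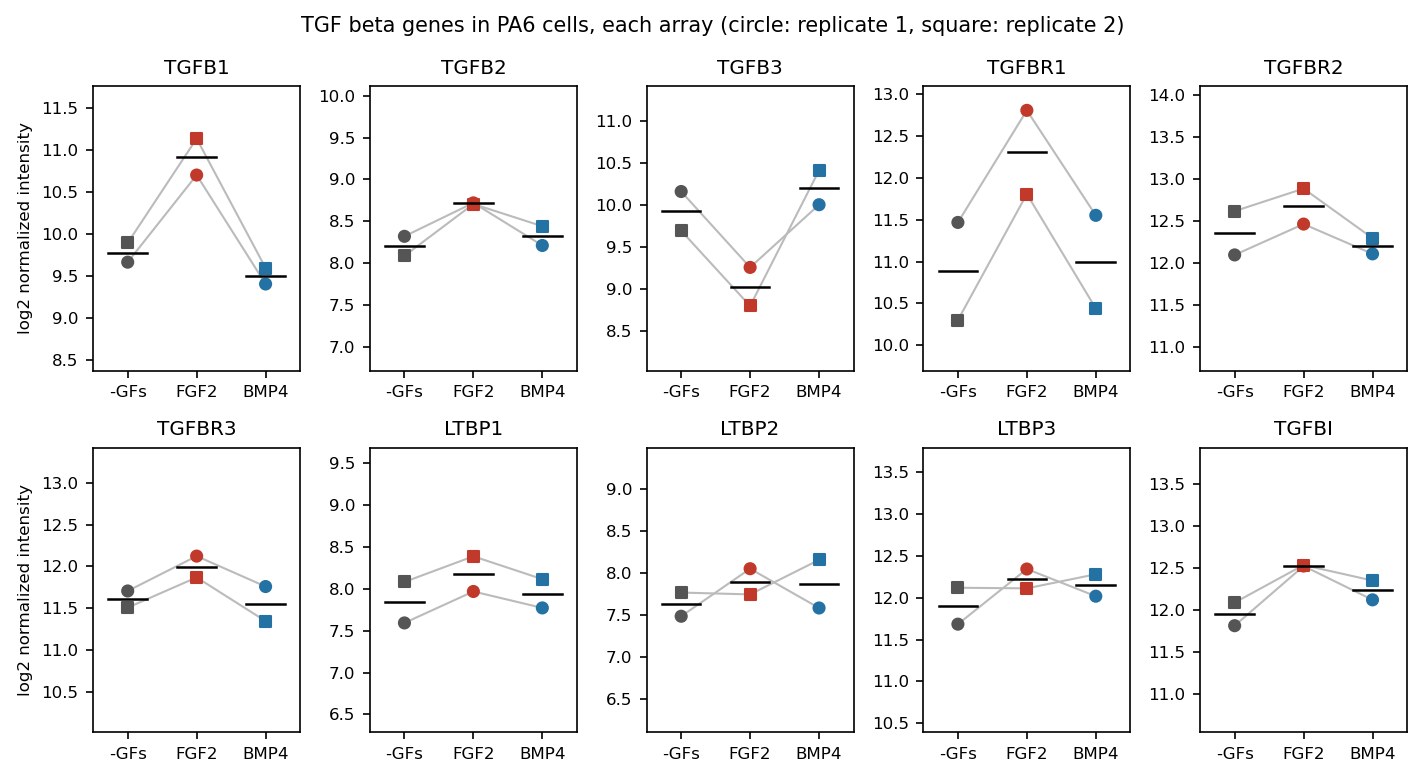
Log2 normalized intensity of each TGFβ gene (vertical axis, the same span of log2 units in every panel) on each array of the -GFs, FGF2 and BMP4 groups (horizontal axis), with circles for replicate 1, squares for replicate 2, grey lines joining a replicate and black bars for group means. TGFB1 and TGFBR1 have both FGF2 arrays above the rest, TGFB3 has both below, and the lines of TGFBR1 run in parallel at separate heights.

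By the probe that represents it, TGFBR1, the type I receptor kinase, showed the largest change with FGF2 and the largest gap between replicates. Its log2 intensity was 11.47 and 10.30 in -GFs medium, 12.80 and 11.81 with FGF2 and 11.55 and 10.44 with BMP4. Replicate 1 was the brighter one in every group, and FGF2 replicate 2 lay only slightly above -GFs replicate 1, so the groups did not overlap but came close. In the deposited intensities replicate 1 was also the brighter one in every group and FGF2 the brightest group within each replicate, with 3202.9 and 1194.4 in -GFs medium, 6873.4 and 3498.8 with FGF2 and 2679 and 1426.6 with BMP4. Within replicate 1 the difference between FGF2 and -GFs was 1.34 and within replicate 2 it was 1.50. Across groups the log2 fold change was 1.42 (95% interval 0.16 to 2.68), a fold of 2.68 and rank 107 from the highest. With a standard error of 0.53, TGFBR1 was not called (adjusted p = 0.168). With the replicate number as a block the standard error was 0.14, the 95% interval 1.13 to 1.71 and the adjusted p 6.33e-07, and TGFBR1 was called. Without the block, its log2 fold change was 0.84 when -GFs replicate 2 was left out, 0.92 when FGF2 replicate 1 was left out and 2.0 when -GFs replicate 1 was left out, with no call.

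The difference between the replicates of TGFBR1 was itself tested in the block model. Replicate 2 was lower than replicate 1 in every group, with a difference of -1.17 in -GFs medium, -1.0 with FGF2 and -1.11 with BMP4 on the log2 scale, and the replicate term was -1.09 (standard error 0.11, adjusted p = 3.97e-06). Over all genes, 1.03% had a replicate term over 1 in size that passed the adjusted p. At the adjusted p alone 5 members passed (28.8% of all genes did), with TGFBR2 (0.38), LTBP1 (0.42) and TGFB1 (0.29) higher and TGFBR3 (-0.29) and TGFBR1 lower in replicate 2. What distinguishes the replicates beyond their number is not given in the sources used here.

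TGFBR2, the type II receptor that binds ligand first, had 12.10 and 12.62 in -GFs medium, 12.47 and 12.89 with FGF2 and 12.11 and 12.30 with BMP4. The FGF2 and -GFs arrays overlapped, although FGF2 was higher by 0.37 and 0.27 within the replicates. The log2 fold change was 0.32 (adjusted p = 0.467, or 0.102 with the block). Leaving out single arrays, in fits without the block, moved it between 0.057 (without -GFs replicate 1) and 0.58 (without -GFs replicate 2). The gap between the replicates, 0.52 in -GFs medium, enters such fits. TGFBR3 had 11.71 and 11.51 in -GFs medium, 12.12 and 11.87 with FGF2 and 11.76 and 11.35 with BMP4. Here both FGF2 arrays were the highest of the 6, by a smaller margin than for TGFBR1, with a log2 fold change of 0.39 (adjusted p = 0.292, or 0.0424 with the block).

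Among the latency proteins no change with FGF2 passed the thresholds. LTBP1, which binds the latent complexes of all the ligands, had 7.59 and 8.08 in -GFs medium, 7.97 and 8.39 with FGF2 and 7.77 and 8.11 with BMP4, and FGF2 was higher by 0.38 and 0.31 within the replicates (adjusted p = 0.448, or 0.0700 with the block). LTBP2, a family member of elastic fibres that does not bind latent TGFβ, had 7.48 and 7.77 in -GFs medium, 8.05 and 7.74 with FGF2 and 7.58 and 8.16 with BMP4. LTBP3 had 11.68 and 12.12 in -GFs medium, 12.34 and 12.11 with FGF2 and 12.02 and 12.28 with BMP4. For LTBP2 and LTBP3 all groups overlapped, and the replicates differed in the response to FGF2, with 0.57 and -0.02 for LTBP2 and 0.66 and -0.01 for LTBP3. The probe of LTBP2 was detected on 5 arrays, missing 1 of the 2 in -GFs medium, so its values are close to background. That of LTBP1 was also dim, with deposited intensities of 204.9 to 318.2 and a detection p of 0.0395 in -GFs replicate 1. For FGF2 against -GFs, single arrays were left out in fits without the block, so the gap between replicates enters these values. The log2 fold change of LTBP1 then went from 0.096 (without -GFs replicate 1) to 0.59 (without -GFs replicate 2). That of LTBP2 went from 0.12 (without FGF2 replicate 1) to 0.43 (without FGF2 replicate 2). That of LTBP3 went from 0.11 (without -GFs replicate 1) to 0.54 (without -GFs replicate 2). With neqc the log2 fold change was 0.72 for LTBP1 and 0.65 for LTBP2.

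TGFBI, the matrix protein, had 11.81 and 12.09 in -GFs medium, 12.53 and 12.54 with FGF2 and 12.12 and 12.35 with BMP4. The groups did not overlap, the FGF2 arrays being highest and those in -GFs medium lowest. With FGF2 the log2 fold change was 0.58 (standard error 0.17, adjusted p = 0.0971), 0.71 and 0.45 within the replicates, under the p threshold and short of the fold threshold. This adjusted p stood just under 0.1. It was 0.164 with arrays scaled to the median, 0.165 with neqc and 0.00451 with the replicate block. With any 1 array left out, in fits without the block, TGFBI no longer passed the p threshold.

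In all, 1 of 10 members was called for FGF2 against -GFs, against 3.53% of all genes, and 2 of 10 (TGFB1 and TGFBR1) with the replicate block, against 3.95%. At the adjusted p alone 3 of 10 passed (TGFB1 and TGFBI higher, TGFB3 lower), against 11.8% of all genes, and with the block 7 of 10, 6 of them higher, against 37.7%. The groups did not overlap for 6 of 10 members, 5 higher and 1 lower with FGF2, and 53.7% of all genes showed the same, so this count lies near the background. Both replicates gave the same sign for 8 of 10 members and for 73.8% of all genes. The median log2 fold change of the members was 0.36, beside -0.02 over all genes. By group means 9 of 10 were higher with FGF2, and 7 of 10 were higher in both replicates. The shares of all genes higher in these ways were not computed, so these counts have no background. They rest on the probe that represents each gene, and some further probes, given below, differed.

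**Figure D2:**
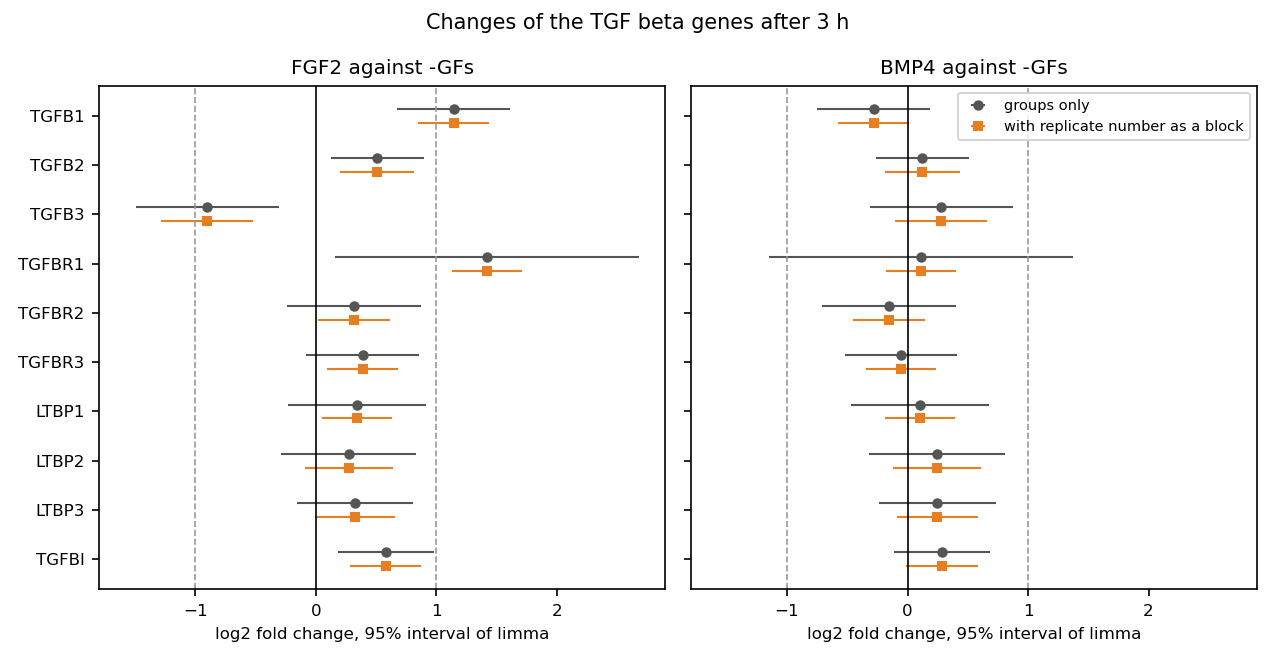
Log2 fold change of each TGFβ gene with its 95% limma interval (horizontal axis) for FGF2 against -GFs and BMP4 against -GFs, from the model of groups (circles) and from the block model (squares), with dashed lines at a log2 fold change of 1 in either direction. For FGF2 the interval of TGFBR1 shrinks from 0.16 to 2.68 down to 1.13 to 1.71 with the block, while for BMP4 the values lie between -0.28 and 0.29.

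BMP4 is a ligand of the same superfamily that signals through other receptors and SMADs. Against -GFs medium, the log2 fold changes of the members went from -0.28 for TGFB1 to 0.29 for TGFBI, and 0 of 10 were called by limma, with or without the block, against 0.00842% and 0.0842% of all genes. At the adjusted p alone, 0 of 10 passed with the block, against 0.219% of all genes. No member had an unadjusted p under 0.05 in limma, in the block model or in the methods' t-test, the lowest in limma being 0.133 for TGFBI. In the model of groups the widest 95% interval was that of TGFBR1, -1.15 to 1.38, so that a change over the fold threshold was not excluded for it. In the block model the intervals of the 10 members lay between -0.57 and 0.66. TGFB1 was lower with BMP4 in both replicates (-0.26 and -0.30), and TGFBI higher in both (0.31 and 0.26). These were the members whose BMP4 and -GFs arrays did not overlap, 2 of 10 against 24.0% of all genes. TGFB3 differed between the replicates, with -0.16 and 0.72.

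The direct comparison of FGF2 with BMP4 tests whether the factors left these messengers at different levels. It shares the FGF2 arrays with the comparison above and is not independent of it. TGFB1 was 2.68-fold higher with FGF2, with 1.30 and 1.54 on the log2 scale within the replicates (adjusted p = 0.0158, or 7.68e-07 with the block). In the fit without the block, this call was lost without FGF2 replicate 2 (1.2). TGFB3 was lower with FGF2, by -0.75 and -1.62 within the replicates. Its log2 fold change of -1.18 (adjusted p = 0.0497, or 0.000106 with the block) passed both thresholds. Without the block, the TGFB3 call was lost when any 1 of the 4 FGF2 and BMP4 arrays was left out (-0.95 to -1.41). Thus 2 of 10 members were called, against 3.07% of all genes, and 3 of 10 with the block, against 3.51%, the third being TGFBR1 (1.31, adjusted p = 0.222, or 1.76e-06 with the block). TGFBR2 and TGFBR3 were higher with FGF2 by 0.47 and 0.44 (adjusted p = 0.305 and 0.261, or 0.0199 and 0.0247 with the block). For LTBP1, LTBP2, LTBP3 and TGFBI the difference was 0.23, 0.03, 0.08 and 0.29, and none passed with or without the block. At the adjusted p alone 2 of 10 passed, against 9.06% of all genes, and with the block 6 of 10, against 34.1%. The FGF2 and BMP4 arrays did not overlap for 7 of 10 members, 6 higher and 1 lower with FGF2, beside 52.8% of all genes.

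**Figure D3:**
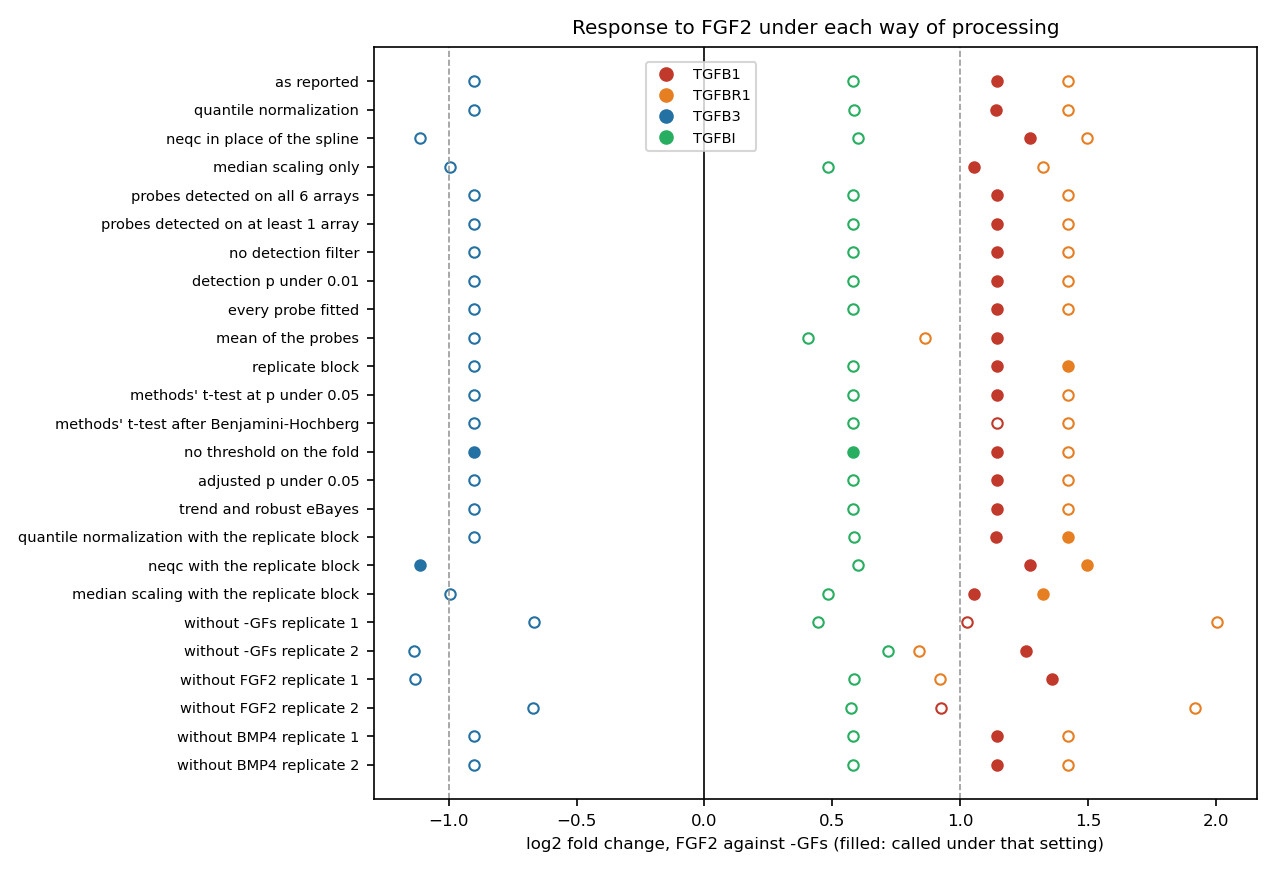
Log2 fold change for FGF2 against -GFs (horizontal axis) of TGFB1, TGFBR1, TGFB3 and TGFBI under each way of processing (vertical axis), filled where the gene was called under that setting. TGFB1 is filled in 21 of 24 alternatives to the values as reported, and TGFBR1 in 4, all of which hold the replicate block.

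The 27 probes of the members did not all carry signal, and 16 passed the detection filter, 13 were detected on all arrays and 10 on none. TGFB1, TGFB2 and TGFB3 have 1 probe each, so no second probe on the array bears on these values. For TGFBR1, 2 of 4 probes passed. The probe that represents the gene gave a log2 fold change of 1.42 for FGF2, and the dimmer one, detected on 4 arrays with intensities of 176.2 to 257, gave 0.31 (0.24 and 0.37 within the replicates). The mean of both probes was 0.86, under the fold threshold. The array sources used here do not say which transcripts the probes match. A second probe gave 0.02 for TGFBR2 (0.32 for the main one), 0.26 for TGFBR3 (0.39) and 0.23 for TGFBI (0.58). The further probes of LTBP3 disagreed in sign, -0.19 and 0.73 beside 0.33. LTBP1 has 7 probes, of which 1 passed and 5 were detected on no array. The remaining LTBP1 probe, detected on 3 arrays, gave -0.006 and -0.064 for FGF2 within the replicates.

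**Figure D4:**
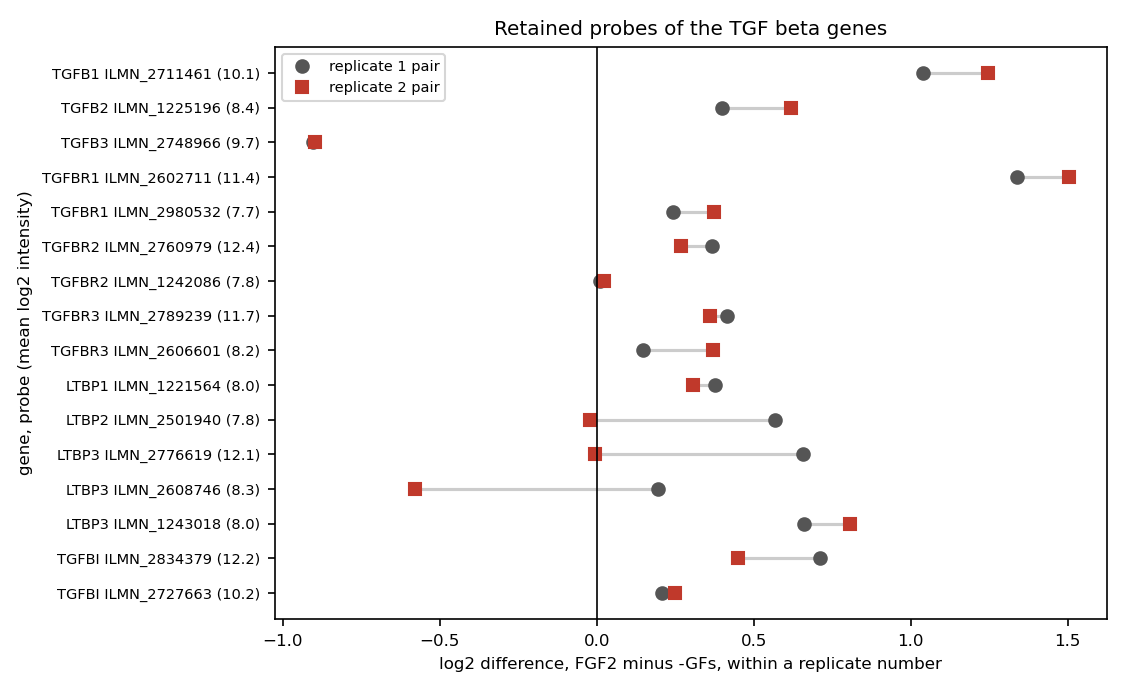
Difference in log2 intensity between FGF2 and -GFs within replicate 1 (circles) and replicate 2 (squares) for each of the 16 retained probes of the TGFβ genes, with the mean log2 intensity of the probe in brackets on the vertical axis. The bright TGFBR1 probe lies at 1.34 and 1.50 and its dim one at 0.24 and 0.37, while TGFB3 lies at -0.91 and -0.90.

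The genes whose pattern over the 6 arrays was most like that of TGFB1, among 1888 genes with a range of at least 1 on the log2 scale, were RPIA, CD44, CCL7 and ELL (Pearson's r of 0.996 each) and the unnamed transcript SCL0001379.1_70 (0.994). CD44 is a hyaluronan receptor and CCL7 a chemokine. In all 157 genes had an r over 0.95 with TGFB1. For TGFB3 there were 16, led by BMX (0.980), MBD4 (0.971), AB112350 (0.970), EFNA1 (0.969) and SCL0001284.1_18 (0.969). These values are descriptions over 6 arrays that share 2 replicates and in which both FGF2 arrays stand apart from the rest for TGFB1 and TGFB3.

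The wider pathway was followed with 3 lists of 78 genes (latency and activation, signalling, and target genes). Among the 61 that could be tested, 9 were called with FGF2 (14.8%), 8 higher and 1 lower, and 15 passed the adjusted p alone (24.6%), against 3.53% and 11.8% of all genes. With the replicate block 9 were called too, against 3.95% of all genes. At the adjusted p alone, the block gave 19 higher and 11 lower of the 61, against 37.7% of all genes in either direction. The lists were chosen with results of these data known, so these shares are a description and not independent evidence. Without FGF2 replicate 2 the 9 became 2, while 108 of all genes were called in place of 419. With BMP4 none was called. Several of the target genes, JUNB among them, are also known as early response genes to growth factors.

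Of the latency and activation genes, 1 of 20 was called, none lower. It was THBS1, a thrombospondin known to activate latent TGFβ, with 7.68 and 7.79 in -GFs medium, 9.30 and 9.29 with FGF2 and 7.91 and 7.80 with BMP4. The FGF2 arrays stood far above the other 4, with a log2 fold change of 1.56 (adjusted p = 0.00525). In -GFs medium the THBS1 probe was detected on both arrays but was dim, near the level of LTBP1. The plasminogen activators PLAU (0.72, adjusted p = 0.0509) and PLAT (0.58, adjusted p = 0.0788), proteases upstream of plasmin, passed the adjusted p alone. Not called were LTBP4 (-0.11), the integrin subunit ITGAV (0.34) and FURIN (0.25), the convertase that cleaves the TGFβ1 precursor. The median of the list was -0.09. ITGB8, a partner of ITGAV in the activation of latent TGFβ, did not pass the detection filter.

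Of the signalling genes, 2 of 21 were called (9.52%), with a median of 0.12 for the list. SMAD3, the receptor-activated transcription factor of the pathway, had 11.84 and 12.11 in -GFs medium, 13.29 and 13.64 with FGF2 and 11.41 and 11.48 with BMP4, a log2 fold change of 1.49 (adjusted p = 0.0103). The groups did not overlap, BMP4 being lowest. DAB2, an adaptor of TGFβ receptor signalling and endocytosis, had 10.41 and 10.01 in -GFs medium and 10.85 and 11.64 with FGF2 (1.04, adjusted p = 0.0793). At the adjusted p alone the corepressor TGIF1 (0.73) and the ligand-binding membrane protein VASN (0.80) were higher and the receptor-associated TGFBRAP1 (-0.64) was lower. The co-receptor ENG (-0.40, adjusted p = 0.196) and the type I receptor ACVRL1 (-0.31, adjusted p = 0.520), both best known from endothelium, were not called.

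Of the target genes, 6 of 20 were called (30.0%), 5 higher and 1 lower, with a median of 0.09 for the list. Those up-regulated were the Bhlhe40 gene under its older name BHLHB2 (2.49), the AP-1 subunit JUNB (2.08), the matricellular CTGF (1.57), the zinc finger factor SNAI1 (1.52) and the protease inhibitor TIMP1 (1.42). SNAI2, a relative of SNAI1, was down-regulated (-1.58), and TSC22D1 was lower at the adjusted p alone (-0.94). SMAD7, a direct SMAD-induced gene, did not pass the detection filter, so no value is given for it. For CTGF, the difference between BMP4 and -GFs was 1.11 (adjusted p = 0.999, or 0.0255 with the block), the only gene of the 61 that passed for BMP4 under the block. Its arrays had 9.31 and 8.41 in -GFs medium and 9.90 and 10.05 with BMP4, so the size of the difference was unequal between the replicates.

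**Figure D5:**
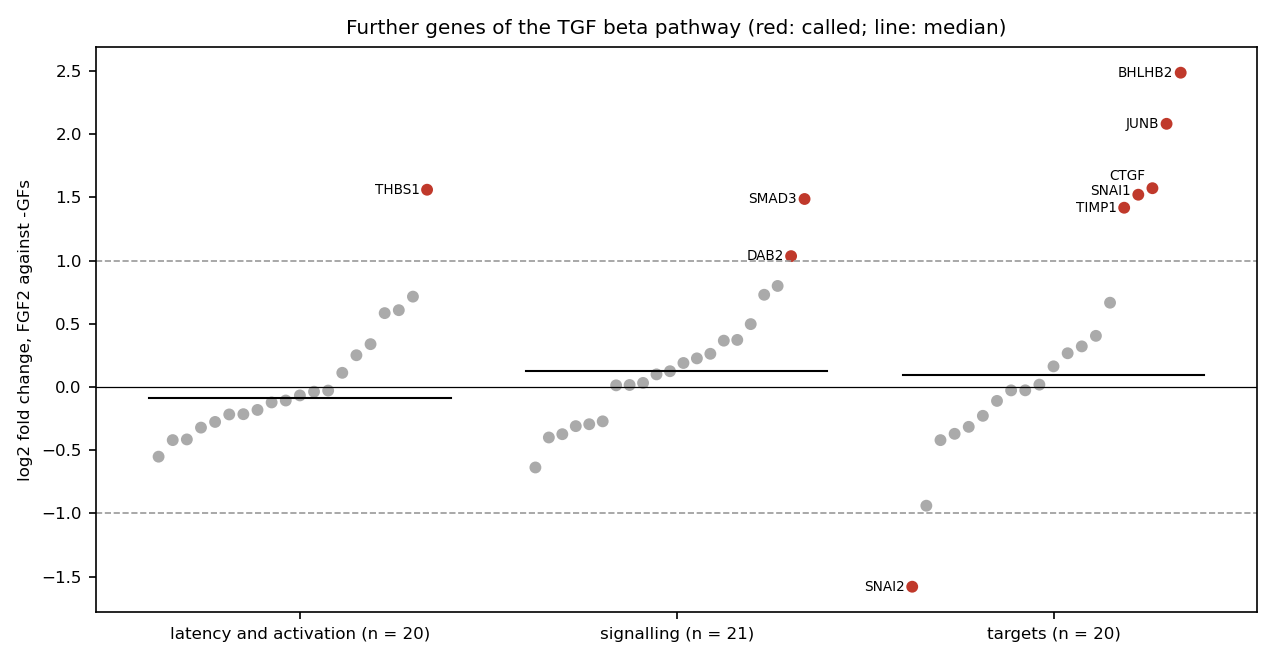
Log2 fold change for FGF2 against -GFs (vertical axis) of every tested gene of the latency and activation, signalling and target lists (horizontal axis, genes in order of their value), red where called, with a line at the median of each list and dashed lines at 1 in either direction. The red points are THBS1, SMAD3, DAB2, 5 targets from 1.42 to 2.49 and SNAI2 at -1.58, and the medians lie between -0.09 and 0.12.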

How the data were processed

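RNA from 6 PA6 cultures (3 groups of 2) was measured on Illumina arrays. The authors deposited the mean bead intensity of each probe before normalization, exported with GenomeStudio 2011.01 per the labels, with the matching detection p-value. The deposited table also has 9 columns without heading on 2045 lines and 5 leftover lines, which were not used.

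Cubic spline normalization, as in the methods, was written anew in R 4.3.3 (452 quantiles per array, fitted to their means over the arrays), and the values were converted to log2. A probe was kept (16111 were) if 1 group or more had it detected, at a p under 0.05, on each of its arrays, and the probe with the largest mean represented a gene. limma 3.58.1 was fitted to 11872 genes, 6 arrays and 3 groups without a block (3 residual degrees of freedom), and every adjusted p is limma's after Benjamini-Hochberg correction. The fit was tested on simulated data.

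The labels tie arrays of 1 replicate number to 1 biological replicate, and their deviations from the group means correlated at 0.602 (-GFs with FGF2), 0.741 (-GFs with BMP4) and 0.579 (FGF2 with BMP4). The block model has 2 residual degrees of freedom. The number of arrays limits the precision.

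Named genes are the members, the called genes of the 3 lists with those at the adjusted p alone, a few defining genes, and the 5 genes most like TGFB1 and TGFB3. Genes that pass the adjusted p alone were added after their values were seen. Members and lists were chosen with earlier results of these data known. Lists were matched through RefSeq synonyms, and LRRC32, SMAD4 and SMURF2 found no name on the array. Alternatives were other normalizations, detection filters, probe rules, thresholds and tests, the block, and each array left out. Normalizations combined with the block were chosen after seeing the data.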

Additional observations from a re-analysis of the deposited data

How the results depend on the processing

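With 2 arrays per group, single arrays decide several calls. The fits that left out an array held no replicate block, so the gap between replicates enters them. The count of members called for FGF2 against -GFs was 1, and became 2 with the replicate block, also when combined with quantile normalization or median scaling, 3 with neqc and the block, 3 without a threshold on the fold, and 0 for the methods' t-test with p-values corrected by Benjamini-Hochberg (it was 1 at an unadjusted p under 0.05). With single arrays left out it was 0 to 1. For FGF2 against BMP4 the count of 2 became 3 with the block, 1 for the methods' t-test at p under 0.05 and 0 after correction, and 0 to 2 with single arrays left out. The count of 9 over the 3 lists became 5 and 0 for the t-test, 15 without a threshold on the fold and 2 to 8 with single arrays left out. For BMP4 against -GFs no member was called under any alternative, and the replicate block changed no other call of a member. Normalizations combined with the block were chosen after seeing the data.

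The sign turned only for values that were not called. For TGFBR3 under BMP4 it was 0.14 with the mean of the probes. With single arrays left out, the values for BMP4 against -GFs went from -0.26 to 0.15 for TGFBR3, -0.14 to 0.35 for LTBP1, -0.47 to 0.69 for TGFBR1, -0.42 to 0.11 for TGFBR2 and -0.043 to 0.53 for LTBP2, and for FGF2 against BMP4 from -0.26 to 0.32 for LTBP2 and -0.053 to 0.21 for LTBP3.

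Over all genes the 419 called for FGF2 against -GFs (271 higher, 148 lower) became 794 with neqc, 1143 with neqc and the block, 1402 without a threshold on the fold, 0 for the corrected t-test (326 with the fold threshold at an unadjusted p under 0.05), 182 without FGF2 replicate 1 and 108 without FGF2 replicate 2. Arrays scaled to the median gave 208 higher and 209 lower. For FGF2 against BMP4 the 365 called became 640 with neqc, 987 with neqc and the block, 1076 without a threshold on the fold, 0 for the corrected t-test, 137 without FGF2 replicate 1 and 98 without FGF2 replicate 2. For BMP4 against -GFs the 1 gene called became 10 with the block, 8 for the t-test at p under 0.05 and 0 to 2 under the remaining alternatives except those with the block.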
